A study of Mus musculus with 6 samples.

Results

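The cells described here are T cells that carry mRNA of Foxp3, the transcription factor that defines regulatory T cells. They were chosen from measured values, as cells with at least 2 unique molecular identifiers (UMIs, tags that mark single RNA molecules) summed over Cd3d, Cd3e and Cd3g and at least 1 UMI of Foxp3. Of 32953 sorted cells, 1462 met the Cd3 condition and 163 met both. The cells came from the synovium of C57BL/6 mice with antigen-induced arthritis (AIA), a model in which the knee of an immunized mouse is challenged with the same antigen. All mice were immunized under the skin with 10 μg methylated bovine serum albumin (mBSA) in complete Freund's adjuvant and received 100 μg mBSA into the knee on day 21. From day 21, 2 samples were from mice given intraperitoneal phosphate buffered saline (PBS) and 4 from mice given 300 μg PEPITEM, a peptide immunomodulator, and joints were collected on day 3 after the challenge. The mice were male, bought at 8 weeks of age and housed for at least 2 weeks before use. The CD45+ cells of the digested joints were sorted and their mRNA was sequenced cell by cell from the 3′ end.

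The deposited table pools all samples. The barcodes end in a library number from 1 to 6, and no label or method used here ties a number to a sample, so PBS and PEPITEM were not compared. The 6 numbers were treated as libraries of unknown treatment, which are not replicates of a group, and for this reason no p-value or SD is given. Intervals are 95% intervals and cover counting error only. The libraries held 2919 to 9345 cells and 47273569 to 123367661 UMIs. No barcode of a Foxp3 T cell was found in a second library, although 138 barcodes of the whole table were found in more than 1.

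Regulatory T cells restrain other lymphocytes and myeloid cells. Foxp3 holds their program in place, the interleukin 2 receptor alpha chain (Il2ra, CD25) lets them take up interleukin 2, and Ctla4 competes for costimulatory ligands on antigen-presenting cells. In nonlymphoid tissues many of them carry the receptor for interleukin 33 and make the repair factor amphiregulin, and in inflamed joints they are studied as a brake on helper T cells that make interleukin 17.

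The regulatory DNA at the start sites of 4 genes on which the description turns is shown to give the sequence context of these transcripts. Each stretch has 300 bases, from 250 bases before to 50 bases after a start in RefSeq (GRCm38.p6, plus strand), written 5′ to 3′. Capitals mark a match to a forkhead core (TGTTTAC or its reverse complement GTAAACA), to a STAT motif (TTCNNNGAA, the same on both strands) or to a TATA box (TATAAA or TTTATA), and no matches overlapped. The Foxp3 starts lie in chrX:7579426-7579725 and chrX:7580233-7580532, Il2ra in chr2:11642542-11642841, Ctla4 in chr1:60908775-60909074, and the Il1rl1 starts in chr1:40429320-40429619 and chr1:40439379-40439678. Ikzf2 has no entry among these sequences.
Foxp3, start 1: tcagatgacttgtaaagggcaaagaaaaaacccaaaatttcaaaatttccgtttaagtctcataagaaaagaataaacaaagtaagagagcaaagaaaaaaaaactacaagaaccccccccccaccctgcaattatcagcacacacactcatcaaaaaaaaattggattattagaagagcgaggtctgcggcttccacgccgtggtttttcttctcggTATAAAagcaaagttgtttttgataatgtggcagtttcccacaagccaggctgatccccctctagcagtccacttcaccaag
Foxp3, start 2: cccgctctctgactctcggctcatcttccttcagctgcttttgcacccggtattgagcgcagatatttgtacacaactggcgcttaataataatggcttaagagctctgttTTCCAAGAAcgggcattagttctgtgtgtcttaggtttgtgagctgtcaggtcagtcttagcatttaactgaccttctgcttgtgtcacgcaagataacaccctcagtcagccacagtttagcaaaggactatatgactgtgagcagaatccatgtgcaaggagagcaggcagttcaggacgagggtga
Il2ra: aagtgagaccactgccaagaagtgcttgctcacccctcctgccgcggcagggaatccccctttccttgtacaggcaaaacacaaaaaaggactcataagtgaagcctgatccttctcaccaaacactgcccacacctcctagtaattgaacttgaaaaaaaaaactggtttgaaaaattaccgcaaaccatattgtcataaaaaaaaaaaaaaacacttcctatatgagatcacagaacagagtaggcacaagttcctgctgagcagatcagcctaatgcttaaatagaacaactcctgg
Ctla4: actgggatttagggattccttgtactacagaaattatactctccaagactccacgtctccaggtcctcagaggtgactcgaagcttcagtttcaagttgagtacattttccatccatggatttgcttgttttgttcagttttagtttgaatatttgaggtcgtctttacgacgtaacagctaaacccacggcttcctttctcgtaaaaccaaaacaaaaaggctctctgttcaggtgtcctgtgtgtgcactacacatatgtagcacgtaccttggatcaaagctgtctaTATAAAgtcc
Il1rl1, start 1: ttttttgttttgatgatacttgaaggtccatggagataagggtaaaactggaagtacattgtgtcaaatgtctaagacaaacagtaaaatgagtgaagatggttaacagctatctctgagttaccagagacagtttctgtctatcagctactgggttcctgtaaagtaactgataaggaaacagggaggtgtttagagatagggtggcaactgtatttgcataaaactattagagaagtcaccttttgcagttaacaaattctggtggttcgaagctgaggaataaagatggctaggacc
Il1rl1, start 2: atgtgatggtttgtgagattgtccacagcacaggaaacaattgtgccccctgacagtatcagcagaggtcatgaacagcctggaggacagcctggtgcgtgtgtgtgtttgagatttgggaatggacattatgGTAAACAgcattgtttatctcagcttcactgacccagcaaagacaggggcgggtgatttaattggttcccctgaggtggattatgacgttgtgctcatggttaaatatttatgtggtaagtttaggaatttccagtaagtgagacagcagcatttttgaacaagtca

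Start 1 of Foxp3 held a TATA match at position -32 from the start, and start 2 held a STAT match at -139. The forkhead core, the kind of site to which Foxp3 itself can bind, was found at none of the Foxp3, Il2ra and Ctla4 starts shown, and at start 2 of Il1rl1 from position -117. Ctla4 held a TATA match at position 41 after its start. Among 32851 start sites of the same length, 3.65% held the forkhead core, 8.30% the STAT motif and 13.6% the TATA box. A match is a description of the letters only.

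The label of regulatory T cells was checked against Il2ra, Ctla4 and Ikzf2, the gene of the transcription factor Helios, none of which the choice of cells used. Ctla4 was found in 96.9% of the Foxp3 T cells, Ikzf2 in 93.3% and Il2ra in 84.0%. All 3 were found in 125 of 163 cells (76.7%, Wilson interval 69.6% to 82.5%), and 1 cell had none of them. Among 218 conventional Cd4 T cells (at least 2 Cd3 UMIs, at least 1 Cd4 UMI and no UMI of Foxp3, Cd8a, Cd8b1 or Trdc), all 3 were found in 14 (6.42%, 3.86% to 10.5%). Both populations had nearly the same depth, with a median of 8443 UMIs per cell in Foxp3 T cells and 8441.5 in conventional Cd4 T cells. A T cell whose Foxp3 mRNA was not captured counts here as conventional, so the conventional population can include such cells. In cells that should lack these genes, Ctla4 was found in 1.45% of 14053 neutrophils (median 10866 UMIs), Ikzf2 in 2.18% and Il2ra in 0.719%. B cells, in contrast, had Il2ra in 28.7% of 5947 cells. Of 297 Cd8 T cells (median 10761 UMIs), 47.1% had Ikzf2, 28.3% Ctla4 and 12.8% Il2ra, and 6 cells (2.02%) had all 3.

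**Figure D1:**
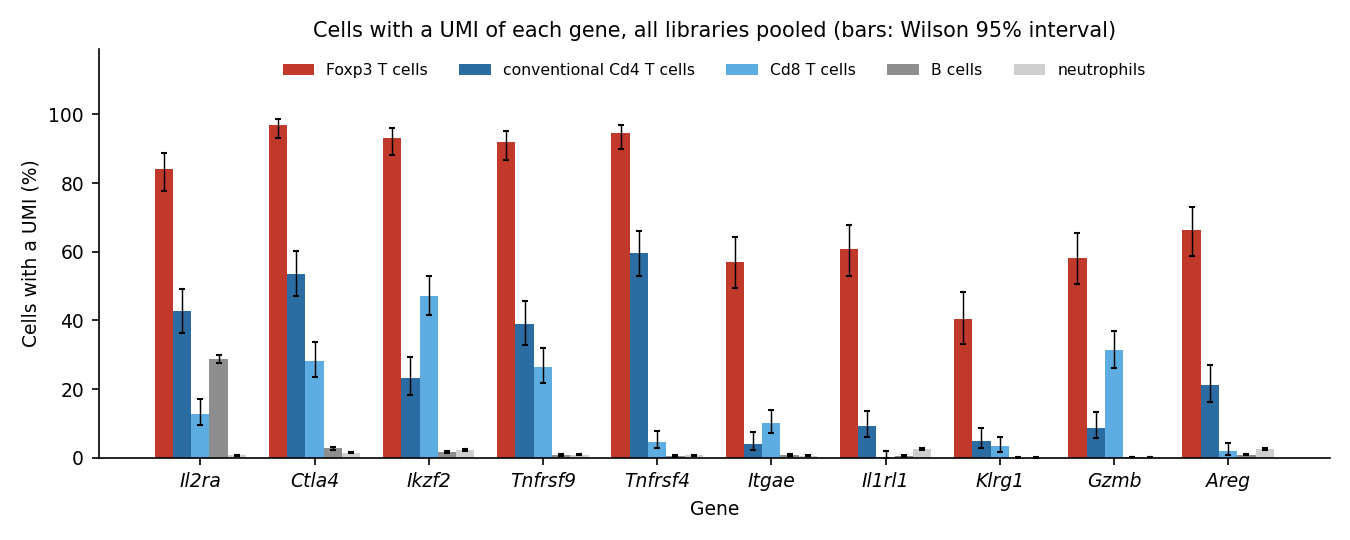
Percentage of cells with at least 1 UMI of each gene in 5 populations, all libraries pooled, with Wilson 95% intervals. The Foxp3 T cells were above the other populations for every gene plotted, and the neutrophil bars stay near 0.

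When every cell was thinned to 3000 UMIs, which left 159 Foxp3 T cells and 218 conventional Cd4 T cells, Ikzf2 was found in 89.3% and 16.5%, Ctla4 in 88.1% and 31.2%, and Il2ra in 69.8% and 23.9%. Foxp3 itself remained detectable in 72.3% of the thinned Foxp3 T cells. Cd4 mRNA was sparse. Only 86 of the 163 cells (52.8%) had a Cd4 UMI, 14 had a Cd8a or Cd8b1 UMI and 2 had a Trdc UMI. Of the 14 cells with Cd8 mRNA, 8 were in library 1 and 4 in library 3, and 32 of the 51 Cd8b1 UMIs were in 1 cell.

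Foxp3 had 736 UMIs in the 163 cells, with a median of 3 and a maximum of 16 per cell. Exactly 1 UMI was found in 36 cells (22.1%), 2 in 19 cells, 3 to 5 in 61 cells and 6 or more in 47 cells. At the edge of the choice, 7 cells with Foxp3 had 1 Cd3 UMI, of which 2 had all of Il2ra, Ctla4 and Ikzf2, and 24 cells with Foxp3 had no Cd3 UMI, of which 16 had none of the 3. Only 3 of the chosen cells had exactly 2 Cd3 UMIs. Foxp3 was found in 0.168% of B cells (0.0914% to 0.309%, median 6029 UMIs) and in 0.0427% of neutrophils (0.0196% to 0.0931%), against 11.1% of T cells.

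The cells with 1 Foxp3 UMI carried the same markers at lower levels, given as UMIs of a gene per 1000000 UMIs of the cells summed (CPM). Il2ra was at 434 CPM in them (exact Poisson interval 376 to 498) and at 1364 CPM (1278 to 1453) in cells with 6 or more, and Gzmb was at 624 CPM (554 to 701) and 1833 CPM (1733 to 1936). Ctla4 ranged less widely, from 1277 to 1755 CPM. The median depth was 6293.5 UMIs in the cells with 1 Foxp3 UMI and 11136 in those with 6 or more, and its part in these differences was not tested. Of the 36 cells with 1 Foxp3 UMI, 19 had all 3 markers, against 106 of the 127 cells with 2 or more.

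**Figure D2:**
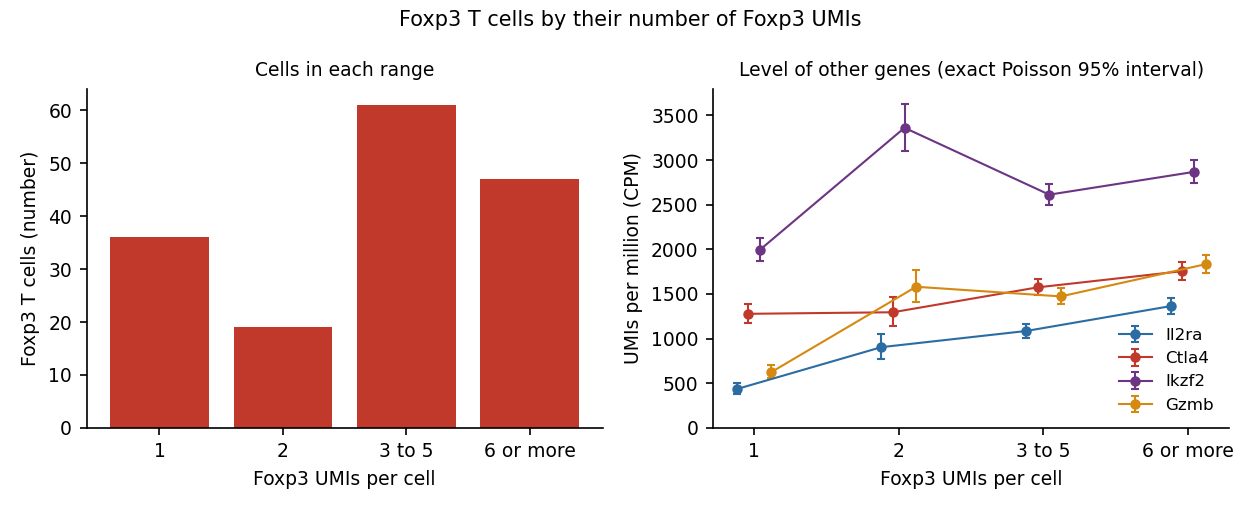
Left, number of Foxp3 T cells by their number of Foxp3 UMIs. Right, CPM of Il2ra, Ctla4, Ikzf2 and Gzmb in the same ranges with exact Poisson 95% intervals. The levels in cells with 1 Foxp3 UMI were the lowest for each of the 4 genes.

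Foxp3 T cells made up 0.495% of all cells (0.424% to 0.576%) and 11.1% of T cells (9.64% to 12.9%). From library 1 to library 6 they numbered 26, 14, 60, 20, 30 and 13. As a share of T cells, library 3 stood apart with 24.9% (19.9% to 30.7%), library 6 had 4.91% (2.89% to 8.21%) and library 2 had 5.60% (3.36% to 9.18%), while libraries 1, 4 and 5 had 11.98%, 11.0% and 9.77%. Library 3 was the smallest library, with 8.86% of all cells, but gave 36.8% of the Foxp3 T cells. Without it, the share was 8.44% of T cells (7.00% to 10.1%) and 0.343% of all cells. A share depends on the other cells counted. Among Foxp3 and conventional Cd4 T cells together, the share was 42.8% pooled (37.9% to 47.8%), 58.3% in library 3 (48.6% to 67.3%) and between 30.2% and 40.8% in the other 5 libraries, and 37.1% (31.6% to 42.9%) without library 3. These populations were counted under unlike rules. Conventional cells needed a Cd4 UMI and no Cd8 or Trdc UMI, and Foxp3 T cells did not. Of the 163 Foxp3 T cells, 86 had a Cd4 UMI and 77 had Cd4 and no Cd8 UMI. The same rule on both sides would give a lower pooled share.

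**Figure D3:**
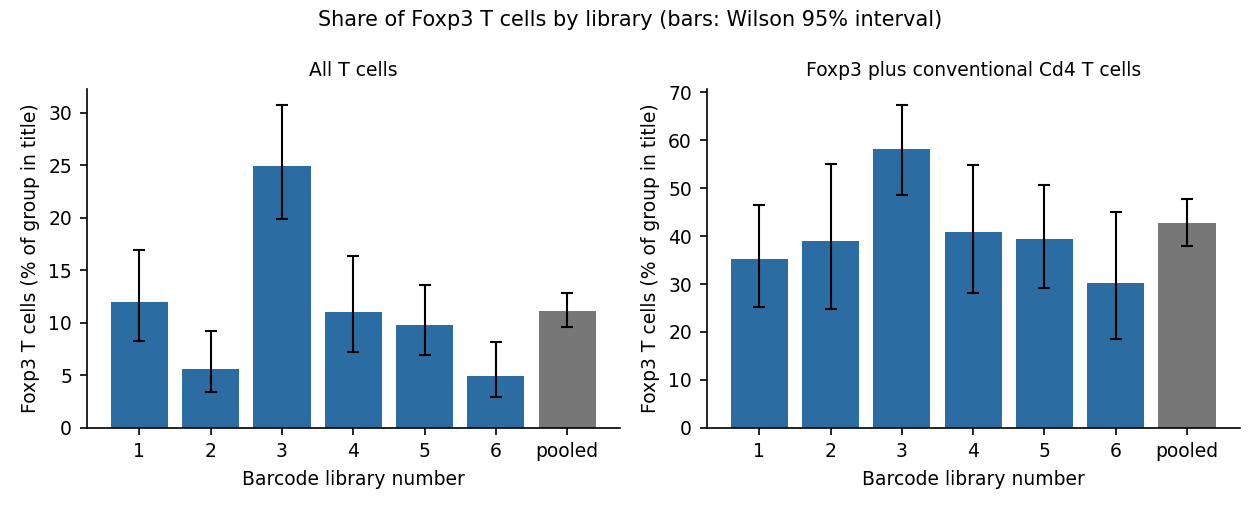
Foxp3 T cells as a percentage of all T cells (left) and of Foxp3 plus conventional Cd4 T cells (right), for each library number and pooled, with Wilson 95% intervals. On the right, a Cd4 UMI was required of the conventional cells only. Library 3 is the highest in both panels, and its interval on the left lies above those of the other libraries.

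To describe what else these cells share, their UMIs were summed and compared gene by gene with those of the conventional Cd4 T cells, as log2 ratios of CPM after adding 10 CPM to both. Of 8075 genes with at least 50 UMIs over both populations and not used to choose either, 182 were at least 2-fold higher in Foxp3 T cells (2.25%) and 150 at least 2-fold lower (1.86%). The difference had the same direction in 6 of 6 libraries for 97 of the former and 98 of the latter, and the median log2 ratio of all genes was 0.01. Among 16 genes of regulatory T cell identity, Foxp3 included, 14 were tested, 10 of these were 2-fold higher, none was 2-fold lower and their median log2 ratio was 2.11. The identity list was written with regulatory T cells in view, and its count describes it and supports nothing further. The shares of all genes, 2.25% higher and 1.86% lower, stand beside the count of every list below.

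Ctla4 had between 635 and 2307 CPM in the Foxp3 T cells of a library (median 1282) and between 104 and 290 CPM in the conventional cells (median 189). The ranges did not overlap. Pooled, Ctla4 was 7.47-fold higher (exact conditional interval 6.83 to 8.18). Ikzf2 had 2109 to 4152 CPM (median 2693) against 23.0 to 631 CPM (median 325), again without overlap, and was 10.1-fold higher (9.35 to 10.9). Helios marks most regulatory T cells that mature in the thymus. Among the conventional cells, Ikzf2 was at 23.0 to 124 CPM in libraries 1, 3 and 4 and at 527 to 631 CPM in libraries 2, 5 and 6.

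Il2ra differed among the libraries within the Foxp3 T cells. It was at 1202, 1191, 1302 and 978 CPM in libraries 1, 3, 4 and 5, but at 255 CPM in library 2 and 202 CPM in library 6, against 118 to 258 CPM in the conventional cells. The ranges of the 2 populations therefore overlapped, although Il2ra was higher in the Foxp3 T cells of each of the 6 libraries (5.48-fold pooled, 4.97 to 6.05). Libraries 2 and 6 were also those with the lowest Ctla4 in Foxp3 T cells, with 938 and 635 CPM, and with the fewest Foxp3 T cells, 14 and 13. The median depth of these cells was 9815 UMIs in library 2 and 5119 UMIs in library 6, the latter being the lowest of all. The Foxp3 T cells of libraries 2, 5 and 6 also held most neutrophil marker RNA, with 39041, 30938 and 73720 CPM over 9 genes, against 16.7, 449 and 5204 CPM in libraries 1, 3 and 4. Without the cells that carry markers of other types, an alternative added after the data were seen, these genes had at most 48.5 CPM in any library. Il2ra was then at 368 and 344 CPM in libraries 2 and 6 (12 and 11 cells) and at 1268 to 1747 CPM in the other 4, while Ctla4 was at 1534 and 1049 CPM against 1579 to 2488 CPM.

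The identity list also holds 3 TNF receptors. Tnfrsf9 (4-1BB), a costimulatory receptor of activated T cells, was found in 92.0% of Foxp3 T cells and 39.0% of conventional Cd4 T cells and was 6.90-fold higher (6.24 to 7.64). Tnfrsf4 (OX40) was 4.74-fold higher (4.37 to 5.15) and Tnfrsf18 (GITR) 3.82-fold higher (3.44 to 4.25). For each of the 3, the lowest library of the Foxp3 T cells was above the highest library of the conventional cells. The share of all genes with non-overlapping libraries is not given here, for these or the other genes so described. Of all 8075 genes tested, 5.35% were higher in 6 of 6 libraries and 6.34% lower. The remaining identity genes at 2-fold or more were Itgae, Lrrc32, Ikzf4 and Izumo1r. Lrrc32 (GARP), which presents latent TGF-β on the cell surface, was at 62.8 CPM against 4.36 CPM but was not higher in library 6, where both populations had about 10 CPM (10.1 and 10.4). Its ratio of 14.4-fold was 8.61-fold without library 1 and 26.4-fold without library 2. Icos, Capg, Nrp1 and Tigit had log2 ratios between 0.57 and 0.86 and stayed below 2-fold.

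Of the 14 genes of effector and suppressor molecules, 12 were tested and 3 were 2-fold higher, Gzmb, Itgb8 and Areg. Gzmb (granzyme B), a protease best known from cytotoxic cells, was at 3160, 289, 1291, 1551, 935 and 10.1 CPM in the Foxp3 T cells of libraries 1 to 6, and at 0 to 187 CPM in the conventional cells. It was high in libraries 1, 3, 4 and 5, lower in library 2 and near the conventional level in library 6, where 1 of 13 cells carried a Gzmb UMI. Without cells that carry markers of other types, libraries 2 and 6 had 481 and 18.1 CPM and the other 4 had 1466 to 3335 CPM. Pooled, it was 24.6-fold higher (21.0 to 29.1) and found in 58.3% of Foxp3 T cells, 8.72% of conventional Cd4 T cells and 31.3% of Cd8 T cells. Areg (amphiregulin) was at 371 CPM against 134 CPM, 2.78-fold higher (2.45 to 3.15), and higher in 6 of 6 libraries. Itgb8, the integrin chain that frees active TGF-β, was 6.81-fold higher (5.19 to 9.04), or 10.8-fold without library 5. The cytokine Tgfb1 itself did not differ at this size, with 276 CPM and 285 CPM (0.971-fold, 0.870 to 1.08). Il10 was sparse, with 34 UMIs in Foxp3 T cells and 25 in conventional cells, and Ebi3 and Il12a, the subunits of interleukin 35, had 45 and 10 UMIs.

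Of 12 genes linked to regulatory T cells in tissues, Il1rl1, Klrg1 and Ccr2 were 2-fold higher and Cxcr6 was 2-fold lower, with a median log2 ratio of 0.34. Il1rl1 (ST2), the receptor for interleukin 33, was at 225 to 555 CPM in the Foxp3 T cells of a library (median 459) and at 4.37 to 86.3 CPM in the conventional cells (median 16.2). The groups did not overlap, and the pooled ratio was 15.3-fold (12.04 to 19.7). It was found in 60.7% of Foxp3 T cells, 9.17% of conventional Cd4 T cells and 0.337% of Cd8 T cells. Klrg1, an inhibitory receptor of differentiated lymphocytes, was 18.9-fold higher (11.4 to 33.7), and Itgae (CD103), the integrin chain that holds T cells to epithelium, was 28.1-fold higher (17.6 to 48.0), or 42.7-fold without library 1. Gata3, Rora, Batf, Nfil3 and Irf4 had log2 ratios from -0.42 to 0.96 and stayed below 2-fold.

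One cell often carried several of Il1rl1, Klrg1, Areg, Gzmb and Itgae, a set chosen after their high values in these cells were seen. Of the 5 genes, 94 of 163 Foxp3 T cells (57.7%, 49.99% to 65.0%) carried 3 or more, against 2 of 218 conventional Cd4 T cells (0.917%, 0.252% to 3.28%) and 1 of 297 Cd8 T cells. All 5 were found in 29 Foxp3 T cells, and none in 13. With each gene found in 40.5% to 66.3% of the Foxp3 T cells, these counts do not show that the genes occurred together beyond their separate shares.

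The 12 leading genes higher in 6 of 6 libraries were Frmd5, Itgae, Il1rl1, Ikzf2, Msrb3, Klrg1, Neb, Ctla4, Tmtc2, Tnfrsf9, Sh3rf1 and Hopx. Of these 12, Frmd5 had the largest log2 ratio, 4.79, with 338 CPM against 2.54 CPM. All 7 of its UMIs in conventional cells were in library 3. It was not shared evenly, since 40 of 163 cells carried it and 10 cells held 64.8% of its UMIs, and it ranged from 8.49 CPM in library 2 to 865 CPM in library 4. Tmtc2 was likewise found in 34.4% of the cells. In contrast, Neb, the gene of the muscle protein nebulin, was at 97.6 to 171 CPM in every library, against 0 to 15.6 CPM in conventional cells, and was found in 54.6% and 5.05% of cells. Hopx, a homeodomain protein, was found in 87.1% and 40.4% of cells and was 6.02-fold higher (5.15 to 7.06). Frmd5, Neb, Tmtc2, Sh3rf1, Ikzf2 and Msrb3 are long genes, spanning 118 to 387 kb of GRCm38 (GENCODE vM21), as does Themis among the leading genes on the lower side, with 215 kb. Frmd5 lies at chr2:121545529-121807087 and Tmtc2 at chr10:105187663-105574451. Whether reads in introns were counted is not given in the sources used here, and the part of gene length in these ratios was not tested.

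**Figure D4:**
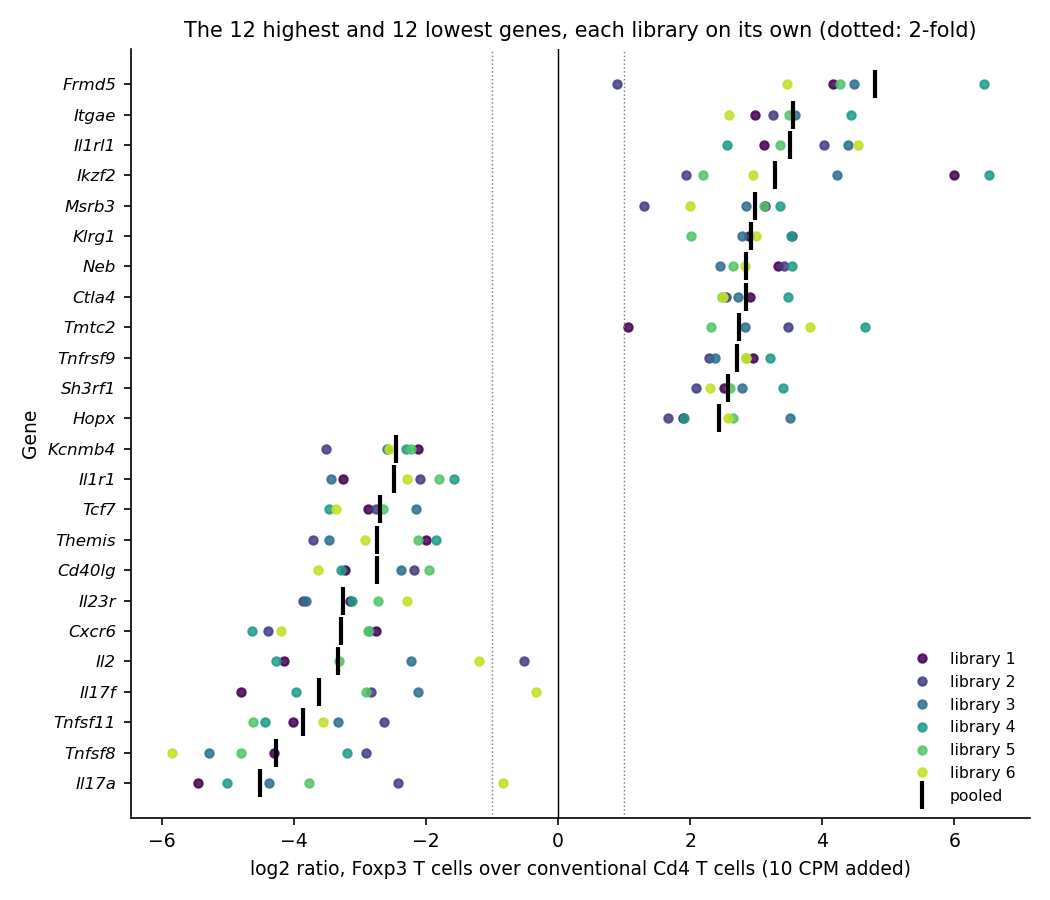
Log2 ratio of Foxp3 T cells to conventional Cd4 T cells (10 CPM added) for the 12 highest and the 12 lowest genes with one direction in 6 of 6 libraries. Colored points are single libraries, black marks are pooled values, and dotted lines mark 2-fold. Frmd5, Il17a, Ikzf2 and Il17f spread most widely over the libraries.

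Genes of helper T cells were lower. Of 19 helper and effector genes in the table, 14 were tested, 11 were 2-fold lower, none was 2-fold higher and the median log2 ratio was -2.10, or -2.58 with the 4 genes at 0 UMIs set to their bound. For comparison, 1.86% of all 8075 genes tested were 2-fold lower. The 4 genes at 0 UMIs passed the minimum of 50 UMIs through the conventional cells alone. Il17f, Il2, Ifng and Cd40lg had few UMIs in Foxp3 T cells and also reached 50 only through the conventional cells. The count of lower genes and the medians rest in large part on such genes. Il17a, the cytokine of helper cells that drive neutrophil inflammation, had 0 UMIs among the 2055483 UMIs of the Foxp3 T cells, which allows up to 1.46 CPM over the whole population. The conventional Cd4 T cells of libraries 1 to 6 had 427, 43.7, 198, 314, 126 and 7.79 CPM of Il17a. Pooled, it was at least 150-fold lower in Foxp3 T cells, at least 84.5-fold without library 1, which held 296 of the 604 conventional UMIs, and at least 94.3-fold without library 3. The conventional level rested on 34 of 218 cells, 1 of which held 150 of the 604 UMIs, and library 6 contributed 3 UMIs. Il17f had 1 UMI against 327, a ratio of 0.00410 (0.000103 to 0.0230), and 1 against 141 without library 1. Its 1 UMI was in library 4, without which it was at least 63.7-fold lower.

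Csf2 (GM-CSF) had 0 UMIs and was at least 44.8-fold lower, while Il13 and Il22, also at 0, were at least 24.6-fold and 17.2-fold lower. The conventional cells that carried them were few, 17, 5 and 12 cells. The bound for Csf2 was 27.7-fold without library 1 and 26.3-fold without library 3, that for Il13 was 8.35-fold without library 3, and that for Il22 was 5.82-fold without library 4, where its log2 ratio of -0.97 was short of 2-fold. Il2, which regulatory T cells consume and scarcely make, had 3 UMIs against 292 (ratio 0.0138, 0.00282 to 0.0406), and 1 against 260 without library 3. Ifng had 9 against 184 UMIs, and Tnf had a log2 ratio of -1.04, which was -0.63 without library 1 and -0.82 without library 3. For Ifng, the counts were 1 against 162 without library 1 and 9 against 108 without library 6. Cd40lg, the signal by which helper cells activate B cells and macrophages, was at 13.6 CPM against 148 CPM. The transcription factor Tbx21 had a log2 ratio of -0.79 and stayed below 2-fold.

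The other leading genes on this side had various roles. Tnfsf8 (CD30 ligand) was at 0 to 65.5 CPM in the Foxp3 T cells of a library (median 17.3) and at 477 to 697 CPM in conventional cells (median 571), a ratio of 0.0355 (0.0255 to 0.0482). Tnfsf11 (RANKL), the cytokine that drives osteoclast formation, was at 0 to 19.4 CPM (median 9.41) against 52.4 to 466 CPM (median 252), and was found in 8.59% and 44.0% of cells. The ranges of these 2 genes did not overlap between the populations. Tcf7, which keeps T cells in an early state, was found in 7.36% of Foxp3 T cells and 62.8% of conventional cells (ratio 0.0865, 0.0535 to 0.133). Themis, a T cell receptor signaling protein, was found in 20.2% and 81.7%, and Cxcr6, a homing receptor, in 8.59% and 61.0%. Il23r and Il1r1, receptors for cytokines that sustain interleukin 17 production, had log2 ratios of -3.25 and -2.49, and the channel subunit Kcnmb4 had -2.45.

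The 10 genes of recirculating T cells had a median log2 ratio of -0.41, and Tcf7, described above, was the one 2-fold lower. Lef1 and Bach2 were lower in 6 of 6 libraries with log2 ratios of -0.98 and -0.76, and Ccr7 had 0.71. The interleukin 7 receptor gene Il7r, low on regulatory T cells of blood, was at 243 CPM against 350 CPM (0.694-fold, 0.621 to 0.774) and was found in 68.7% of Foxp3 T cells.

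**Figure D5:**
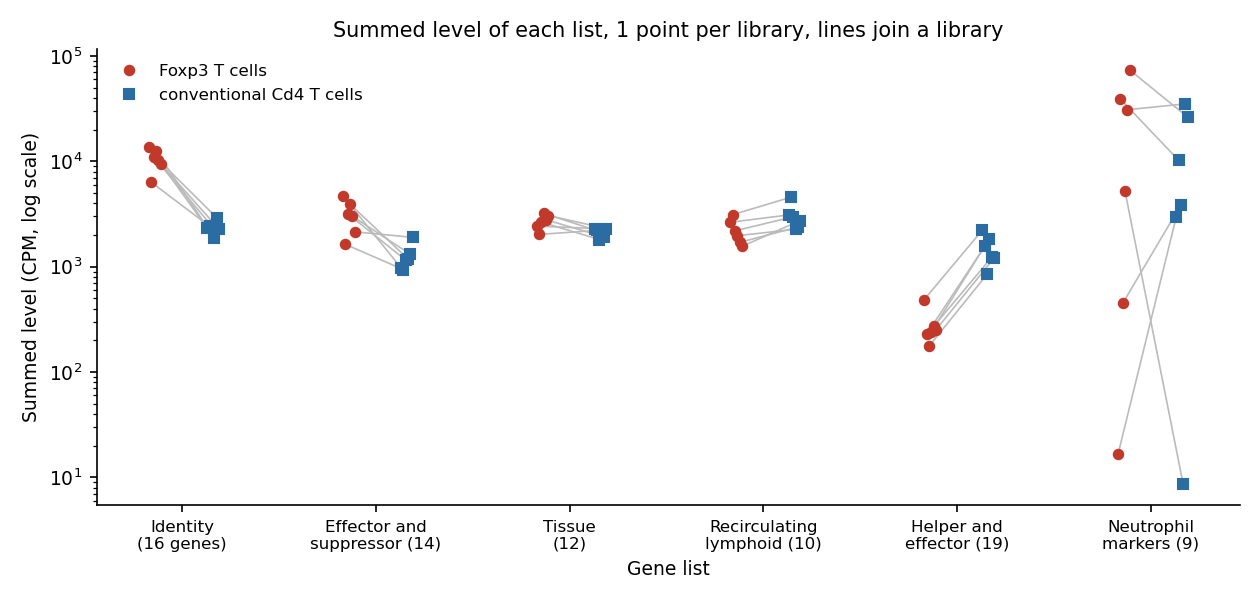
Summed CPM of 6 gene lists in each library, on a log axis, for Foxp3 T cells (circles) and conventional Cd4 T cells (squares), with lines joining the 2 populations of a library. The identity list, which includes Foxp3 and so differs in part by the choice of cells, was at 6318 CPM or more in Foxp3 T cells and at 2931 CPM or less in conventional cells (6072 and 2931 CPM without Foxp3), and the helper list was lower in Foxp3 T cells in every library, while the neutrophil markers run from 16.7 to 73720 CPM over the libraries of Foxp3 T cells.

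Signaling genes were also compared, where 2.25% of all 8075 genes tested were 2-fold higher and 1.86% lower. Whether the lists in this paragraph differ from other genes was not tested. Of 12 genes of interleukin 2 receptor signaling, Bcl2 alone was past 2-fold, with 42.3 CPM against 195 CPM (0.217-fold, 0.171 to 0.273) and non-overlapping libraries. The receptor chains Il2rb and Il2rg had log2 ratios of 0.23 and 0.21, and Stat5b had 0.53. Among 16 genes of T cell receptor signaling and response, 2 were 2-fold lower, among them the early response gene Egr1, none was 2-fold higher and the median log2 ratio was -0.46. Nr4a1, an early response gene of the receptor, was at 257 CPM and 285 CPM. Among the checkpoint receptors, Havcr2 (TIM-3) was 2-fold higher beside Ctla4, with a log2 ratio of 1.10 that was 0.92 without library 5, whereas Pdcd1 (PD-1) was at 46.7 CPM and 49.0 CPM. Lag3 had 3 UMIs in Foxp3 T cells and 13 in conventional cells.

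Receptors that guide T cells into tissue varied one by one. Of 21 genes, 4 were 2-fold higher, among them Itgae, Ccr2 and Icam1, and Cxcr6 was 2-fold lower. Ccr2 was found in 66.9% of Foxp3 T cells and 45.0% of conventional cells (2.58-fold), although Ccr2 was lower in library 6. Icam1 had a log2 ratio of 1.05, which was 0.99 without library 1 and 0.85 without library 4. Ccr8, a receptor of some tissue regulatory T cells, had 26 UMIs in 12.3% of the cells, close to 10.1% of conventional cells. Itgb1, an integrin chain, had a log2 ratio of -0.997, just short of 2-fold, with non-overlapping libraries.

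Of 11 genes of the PEPITEM pathway, 6 were tested, none was past 2-fold and the median log2 ratio was 0.02. As 2.25% of all 8075 genes tested were 2-fold higher and 1.86% lower, this count does not set the pathway apart. Adipor1 and Adipor2, the adiponectin receptors, were at 74.9 and 145 CPM in Foxp3 T cells against 73.3 and 141 CPM. Ywhaz, whose protein is the source of the peptide, was at 424 CPM and 419 CPM. The sphingosine 1-phosphate transporter gene Spns2 had 4 UMIs in each population, S1pr1 had a log2 ratio of -0.31 and S1pr4 of 0.02, and Cdh15 had no UMI.

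A Mki67 or Top2a UMI, a sign of the cell cycle, was found in 65 Foxp3 T cells (39.9%, 32.7% to 47.5%), 86 conventional Cd4 T cells (39.4%, 33.2% to 46.1%) and 81 Cd8 T cells (27.3%, 22.5% to 32.6%). The Foxp3 T cells with such a UMI were deeper (median 11807 UMIs) than those without (6834), and thinned to 3000 UMIs Mki67 was found in 14.5% of Foxp3 T cells and 11.5% of conventional cells. Neutrophils and B cells had Mki67 in 20.1% and 18.3% of cells without thinning. They also had Ccna2 in 12.1% and 12.7% and Cdk1 in 13.8% and 13.5% of cells. Whether cells of these populations were in cycle was not tested, so their shares are not a background for Mki67. A Mki67 UMI alone was not read as cycling. None of 16 cell cycle genes was past 2-fold, beside 2.25% of all genes tested higher and 1.86% lower. Without cells that carry markers of other types, 1 of the 16, Rrm2, was 2-fold lower (log2 ratio -1.26), and the list summed to 2697 against 3777 CPM. Among cells with Cd4 and no Cd8 mRNA, Rrm2, Stmn1, Tyms and Tubb5 had log2 ratios of -1.48, -1.12, -1.08 and -1.05.

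Of the variable segments of the T cell receptor beta chain, 15 were in the table and a UMI of any was found in 22 of 163 cells. Trbv20 and Trbv3 were found in 4 cells each and Trbv12-2 in 3, too few to describe receptor usage.

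Of 11 general T cell markers tested, Themis alone was past 2-fold, with a median log2 ratio of -0.24. Markers of other blood cells were also found in these cells. At least 5 UMIs over 8 markers of B cells, macrophages and neutrophils were counted in 25 of 163 Foxp3 T cells (15.3%) and 25 of 218 conventional cells (11.5%). These 25 cells had a median of 26080 UMIs against 7369.5 in the other Foxp3 T cells. The 9 neutrophil markers summed to 13734 CPM in Foxp3 T cells and 11848 CPM in conventional cells, led by S100a9 with 5383 CPM and 4824 CPM, and all 10973 S100a8 UMIs came from 6 cells, up to 3532 in 1 of them. Of 10 markers of monocytes and macrophages, all were found, with a sum of 4081 and 2530 CPM led by Lyz2 (2444 and 1418 CPM). The 8 B cell markers summed to 467 and 209 CPM, led by Ighm, and the 8 dendritic cell genes to 4627 and 3417 CPM, led by Cd74, with Siglech at 0. The 6 genes listed for type 2 innate lymphoid cells, of which the tissue list also holds Il1rl1, Gata3 and Rora, summed to 1576 and 1294 CPM, led by Rora, with 4 found in Foxp3 T cells, a median log2 ratio of 0.21 over the 4 tested and Il5 and Il13 at 0, and their part in the Il1rl1 level was not tested. The 6 mast cell and basophil markers were all at 0, while 3 of 5 NK cell markers (Ncr1, Klrb1c and Klra8), 5 of 6 fibroblast genes and 3 of 5 erythroid genes were at 0 and the rest of these lists summed to 4.38, 0.487 and 0.973 CPM. Of these markers, Ebf1 and Ighm of B cells, Apoe of macrophages and Flt3 of dendritic cells were 2-fold higher in Foxp3 T cells than in conventional cells. Cd8a and Cd8b1 summed to 32.6 CPM, and Trdc gave the 2.92 CPM of the γδ T cell list.

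When the cells with such markers were left out, 138 Foxp3 T cells and 193 conventional cells remained. The identity list then had 11 of 14 genes 2-fold higher, the helper list 11 of 14 genes 2-fold lower, the tissue list 5 of 10 genes 2-fold higher and 1 lower, and the effector and suppressor list 5 of 11 genes 2-fold higher with a median log2 ratio of 0.98 in place of 0.44, where 4.10% of all 7002 genes tested were 2-fold higher and 2.78% lower. Entpd1 (CD39), which breaks down extracellular ATP, went from a log2 ratio of 0.41 with all cells to 2.44. Gzmb had a log2 ratio of 4.59, Ikzf2 of 3.91, Il1rl1 of 3.84, Il2ra of 2.58 and Il17a of -4.87, each farther from 0 than with all cells. Of the markers of other cells that were 2-fold higher with all cells, Ighm then had a log2 ratio of 2.06, Flt3 of 1.05, Apoe of 0.47 and Ebf1 of -0.048. Without library 3, the identity list had 10 of 14 genes 2-fold higher and the helper list 9 of 12 genes 2-fold lower, where 2.53% and 2.20% of all 7126 genes tested were 2-fold higher and lower. Gzmb then had 4.33, Ikzf2 3.13, Il1rl1 3.23, Il2ra 2.40 and Il17a -4.56, while Apoe had 1.66, Ighm 0.78, Flt3 0.77 and Ebf1 -0.52.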

How the data were processed

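Single-cell RNA sequencing libraries of sorted CD45+ synovial cells were made with a 10x 3′ kit (version 3.1). Per the methods of the study, reads were aligned to mm10 with Cell Ranger 7.0.0, SoupX 1.6.2 corrected for ambient RNA, DoubletFinder 2.0.3 took out doublets, and Seurat 4.3.0 kept cells with at most 10% mitochondrial counts and 200 to 7000 genes. The authors deposited whole-number UMI counts for 20394 genes and 32953 cells, without scaling for depth. No further doublet caller was run. Ambient correction lowers counts of abundant genes, and 1724738 entries are written as 0.

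The cells, gene lists and comparisons were chosen with earlier results of these data known. Counts were summed over the cells of a population and divided by the population's total (CPM). Ratios are log2 with 10 CPM added, for genes with at least 50 UMIs over both populations, and folds and their exact conditional intervals carry no pseudocount. Cd8 T cells had at least 2 Cd3 UMIs, a Cd8a or Cd8b1 UMI and no Cd4 or Foxp3 UMI, B cells at least 2 Cd79a UMIs and no Cd3 UMI, and neutrophils at least 50 UMIs of S100a8 and S100a9 and no Cd3 UMI. Named were the genes of the lists and the 12 highest and 12 lowest genes with one direction in all 6 libraries, mitochondrial genes and receptor segments left out. The Foxp3 T cells held 2055483 UMIs and the conventional cells 2754755. PBS and PEPITEM were not compared, because libraries could not be tied to them. Foxp3 and conventional cells were compared pooled and within each library as sizes, with no test, because libraries whose sample and treatment are unknown were not used as replicates. The ratio and its intervals were tested on simulated counts that carried counting error alone, with no spread between cells. Some genes had their UMIs bunched in few cells, as Frmd5 did, so the simulation cannot show that the intervals hold for these data. Alternatives changed thresholds, pseudocount, scaling, depth, the doubted cells and the libraries. Computation used Python 3.11.15 with pandas 2.3.3, scipy 1.17.1 and numpy 2.4.6, and plots matplotlib 3.10.9. Gene positions are from GENCODE vM21 and start sites from RefSeq. Some listed genes are not reported here.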

Additional observations from a re-analysis of the deposited data

How the results depend on the processing

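Among T cells the share of Foxp3 T cells was 7.00% with 1 Cd3 UMI as the minimum, 8.69% with 2 Foxp3 UMIs and 9.61% with cells thinned to 3000 UMIs. Among all cells it was 0.385% with 2 Foxp3 UMIs, 0.321% thinned and 0.411% as the median over the 6 libraries. Leaving out cells with markers of other types gave 1.82% of all cells, since this setting leaves 7579 cells in the denominator. Leaving out 1 library at a time gave 8.44% to 12.5% of T cells and 0.343% to 0.590% of all cells, with the lowest values without library 3.

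With 1 CPM added, 318 genes were 2-fold higher and 269 lower. With 50 CPM added, they were 56 and 46, as a larger addition shrinks the ratios of low genes. Among cells with Cd4 and no Cd8 mRNA (77 Foxp3 T cells), 256 genes were lower. Without cells that carry markers of other types, 287 were higher. Leaving out 1 library at a time gave 158 to 222 higher and 143 to 176 lower genes. Of 52 named genes past 2-fold, 51 kept their direction under all 15 alternatives and 40 also stayed past 2-fold, including all 24 leading genes. The leading genes were picked as the most extreme in these same data, so their staying past 2-fold was largely fixed by that choice. Ebf1, a B cell gene whose 264 UMIs came from 8 Foxp3 T cells, had a log2 ratio of 1.21 and turned to -0.44 as a mean over libraries, -0.048 without cells that carry markers of other types and -0.52 without library 3 (1.90 without library 2). No paired analysis was possible because the replicate numbers of the PBS and PEPITEM samples are not tied to libraries. Both populations of a library were compared within it, without a test, and the mean of the 6 log2 ratios put 179 genes at 2-fold or more higher (133 of them among the 182) and 160 lower (128 of them among the 150). With 13 to 60 Foxp3 T cells in a library, sparse genes are poorly measured in single libraries.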

Other observations

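Ighm, the immunoglobulin heavy chain gene, was found in 104 of 163 Foxp3 T cells (63.8%, 56.2% to 70.8%), in 23.9% of conventional Cd4 T cells and in 45.8% of Cd8 T cells, at 209, 80.2 and 96.0 CPM. Among the 147 Foxp3 T cells with no Cd79a or Cd79b UMI, 91 (61.9%) still carried it, with at most 14 UMIs in a cell. The share was between 53.8% and 70.0% in each library. Neutrophils carried an Ighm UMI in 36.8% of cells and B cells in 99.3%, and the part of free RNA in these shares was not tested.

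Cd74, the invariant chain of the antigen presentation pathway, was found in 46.0% of Foxp3 T cells and 20.6% of conventional cells, but its log2 ratio ran from -4.40 to 7.17 over the libraries and 1 cell held 843 of its 5224 UMIs.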
